A study of Mus musculus with 31 samples.

Results

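The genes described here are named for proteins of the cytosolic ribosome and were read on arrays of mouse colonic scrapings. They were the genes whose array probe sets carry a single symbol of the form Rpl or Rps followed by a number, with an optional suffix, together with Rpsa, Rplp0, Rplp1 and Rplp2. The rule found 74 genes among 18820 with a one-symbol probe set, by symbol 27 of the small (40S) subunit and 47 of the large (60S) subunit. Paralogues such as Rpl7l1, and Rps4l, annotated as a transcribed pseudogene, are counted with the subunit of their symbol. Each gene was read from its probe set with the highest mean level. The rule itself uses symbols and mean levels and no measured difference, but the set was chosen with earlier results of these data known. A total of 71 passed the filter on dim genes, a level of 20 on the linear scale in at least 3 arrays, against 12795 genes of the whole table. The 3 that did not pass were Rpl10l, Rpl39l and Rpl3l, paralogues of Rpl10, Rpl39 and Rpl3 that are known mainly from testis or striated muscle. Their mean log2 levels were 4.00, 2.87 and 3.26, and no array reached the filter for any of them. Family members whose probe sets carry several symbols were not analysed here.

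All mice were male C57Bl/6J, individually housed and 13 weeks old. They ate a semi-synthetic, palm-oil-based diet with 10% (low-fat diet, LFD) or 45% (high-fat diet, HFD) of its energy as fat. On each of 6 consecutive days they received, under light isoflurane and nitrous oxide sedation, an 80 µL rectal infusion. The infusate, isotonic at pH 6.5, was saline in the control mice and otherwise contained the sodium salt of acetate, propionate or butyrate at 100 mM. These are short-chain fatty acids that differ in the length of their carbon chain. The colon was taken 4 h after the last infusion and its epithelial lining was scraped off. There were 8 groups of 4 arrays, except acetate on LFD with 3, giving 31 arrays. The labels name 6 mice per treatment and do not say which mouse gave which array, so the p-values measure only the spread between these samples. Every mouse was sedated and infused, so no untouched colon was available for comparison. A scraping is a bulk sample, in which fewer cells of a type and less RNA per cell cannot be told apart.

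A ribosome is built from ribosomal RNA and about equal numbers of copies of each ribosomal protein. The genes for these proteins are among the most highly transcribed in any cell. Their mRNAs start with a run of pyrimidines, the 5-prime terminal oligopyrimidine (TOP) tract, through which mTORC1 signalling controls their translation as a set. In the colon the demand for ribosomes is greatest in the crypts, where cells divide.

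The RefSeq starts of the genes are shown for 5 members with large differences after propionate and for Rplp0, which hardly differed, because the start holds the TOP tract. Each line gives 50 bases before and 20 bases from the annotated start in build GRCm38.p6, with the longest pyrimidine run within 20 bases of the start in capitals.

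Rps27 (chr3:90213629-90213698, minus strand): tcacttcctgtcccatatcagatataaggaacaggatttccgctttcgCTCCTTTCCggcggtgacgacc
Rps28 (chr17:33824543-33824612, minus strand): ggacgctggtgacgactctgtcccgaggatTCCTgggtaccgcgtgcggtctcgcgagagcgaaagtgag
Rps12 (chr10:23787190-23787259, minus strand): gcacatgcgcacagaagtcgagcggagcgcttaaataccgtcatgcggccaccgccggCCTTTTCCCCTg
Rpl24 (chr16:55966225-55966294, plus strand): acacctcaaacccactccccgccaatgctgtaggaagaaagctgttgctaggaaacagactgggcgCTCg
Rpl13a (chr7:45128726-45128795, minus strand): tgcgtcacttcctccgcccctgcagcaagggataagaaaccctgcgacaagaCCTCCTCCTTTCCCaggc
Rplp0 (chr5:115559417-115559486, plus strand): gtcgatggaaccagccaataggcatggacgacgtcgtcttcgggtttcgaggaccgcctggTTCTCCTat

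The run of Rps27 was 9 bases long and spanned the annotated start. That of Rpl13a was 14 bases long and began 2 bases after the first transcribed base, and that of Rps12 was 11 bases long and began 8 bases after it. The longest runs of Rps28, Rpl24 and Rplp0 had 4, 3 and 7 bases. The annotated starts were not checked against the starts used in this tissue. A short run here therefore does not show that an mRNA lacks a TOP tract. RefSeq windows were found for 60 of the 74 members. A run of at least 8 pyrimidines on the transcribed strand within 20 bases of the start stood in 29 of them, or 48.3%, against 18.4% of 27025 genes with a window. The letters CCGGAAG, on either strand in the window of 300 bases, stood in 43.3% of the members and 9.93% of all genes. The letters AAGATGG stood in 15% of the members and 7.28% of all genes. A match of letters is a description of these windows and not a binding site. Members with and without the pyrimidine run had median differences after propionate on HFD of 0.129 (29 members) and 0.115 (28 members). That split follows the letters near the annotated start and does not separate TOP mRNAs from others.

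The arrays carried the transcripts of colonic epithelium. Car1 lay between 12.67 and 13.00 on the log2 scale, Muc2 between 13.06 and 13.25, and Krt20 between 11.05 and 11.77 over the 31 arrays. All 12 colonocyte and all 7 goblet cell markers read passed the filter. Arrays of a group correlated between 0.987 and 0.994 over all probe sets. In 4 arrays (saline LFD 2 and 3, propionate LFD 2, saline HFD 2) transcripts of small-intestinal lipid absorption were high, with Apoa1 reaching 11.39 against a median of 6.07. In saline HFD 1 and 2 smooth muscle transcripts were high. The mean of 8 such markers ranged from 5.26 to 7.10 over the saline HFD arrays and from 5.35 to 5.62 over the propionate HFD arrays. Counts of members were also taken without these arrays. The larger moves are given below, and the smallest ones are not all listed.

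The ribosomal protein genes were abundant. The means of the 71 tested members ran from 5.22 to 12.7 on the log2 scale, and 62 had a mean above 9. Array signals depend on the probes, so the levels of different genes were not ranked against each other. Within groups the SD was lowest for Rplp0 (0.035), the scaffold of the stalk that recruits elongation factors, followed by Rpl21 (0.044), Rpl7a (0.047), Rpl17 (0.049) and Rpl28 (0.052). It was highest for Rpl24 (0.25), Rpl22 (0.22), Rps28 (0.20), Rps29 (0.19) and Rps12 (0.19). The members varied together. Over the 2485 pairs of members, the correlation of their deviations from the group means over the 31 arrays had a median of 0.354 and was above 0 in 81.1% of pairs. The medians of the 40S and the 60S genes correlated over the arrays with r = 0.796 (rho 0.741, n = 31, r = 0.797 without the 2 arrays farthest from the middle). The genes least like the other members were Rpl7l1 (r = -0.52 with the median of the others), Rpl29 (-0.37), Rps6 (-0.11), Rplp2 (-0.016) and Rps27l (0.038). Of these, Rplp2 had a dim probe set, with a mean of 5.31 in the saline HFD arrays, where the median over all probe sets was 5.16. Arrays share an RNA sample and a normalization across all their genes, so these correlations describe the arrays and carry no test.

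**Figure D1:**
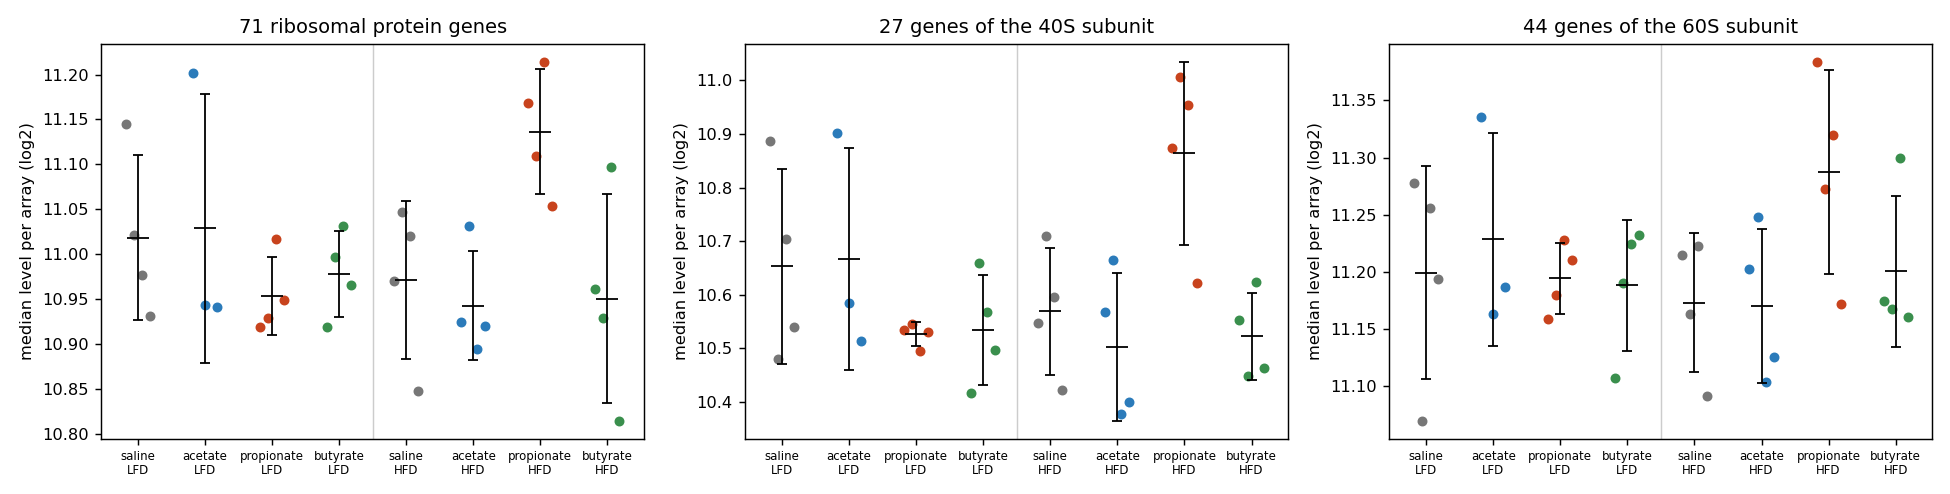
Median log2 level per array of the 71 tested ribosomal protein genes (left), the 27 of the 40S subunit (middle) and the 44 of the 60S subunit (right), by group, with the group mean and SD (n = 4, acetate LFD 3); the y axes differ and do not start at 0. The 4 propionate HFD arrays, at 11.05 to 11.21 on the left, lie above all saline and acetate HFD arrays, 1 of them below butyrate HFD 3 at 11.10; saline LFD 1 and acetate LFD 1 lie as high.

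The group that stood out was propionate on HFD. The median over the members was 11.17, 11.11, 11.21 and 11.05 in its 4 arrays. It was 10.97, 11.05, 11.02 and 10.85 in the saline HFD arrays, 10.92, 11.03, 10.90 and 10.92 after acetate, and 10.96, 10.93, 11.10 and 10.81 after butyrate. All 4 propionate HFD arrays were above the saline and acetate HFD arrays, the closest pair being propionate HFD 4 at 11.054 and saline HFD 2 at 11.047. Propionate HFD 4 was below butyrate HFD 3. On LFD the medians were 11.14, 11.02, 10.98 and 10.93 after saline and 11.20, 10.94 and 10.94 after acetate. They were 10.92, 10.93, 11.02 and 10.95 after propionate and 10.92, 11.00, 11.03 and 10.97 after butyrate. In the LFD arrays the highest values came from 1 saline and 1 acetate array, while the other LFD arrays lay between 10.92 and 11.03. The members' median in a group mean was 11.14 ± 0.070 (SD, n = 4) after propionate on HFD and between 10.94 and 11.03 in the other 7 groups.

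Propionate against saline on HFD asks whether propionate moved these genes in mice on the fatty diet. In limma no gene of the table passed the test at an adjusted p of 0.05 (0 of 12795, a background of 0%), and so none of the 71 members did. The members nonetheless lay on 1 side. Of the 71, 63 were above 0, with a median log2 difference of 0.119, against a median of -0.019 over all genes tested. At an unadjusted p under 0.05 there were 33 members above saline and none below, 46.5% of the members. The background at that threshold was 11.7% of all genes in either direction and 3.81% above saline. For 9 members every propionate array was above every saline array, against a background of 1.75%. The count of 33 was 18 without saline HFD 4 and 21 without propionate HFD 3. With the 4 arrays rich in lipid absorption transcripts left out it was 34, and with the 2 rich in smooth muscle transcripts left out it was 32. The backgrounds above are those of the full fit and not of these settings.

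The genes of the small subunit had the larger differences, while more of the 33 were genes of the large subunit. The median difference was 0.206 over the 27 genes of the 40S subunit, of which 15 had an unadjusted p under 0.05, and 0.082 over the 44 of the 60S subunit, of which 18 did. Rps27, a zinc-binding protein of the 40S subunit (Entrez Gene 57294), was at 9.61, 9.82, 9.86 and 9.65 in the propionate HFD arrays. It was at 9.27, 9.47, 9.30 and 9.04 in the saline HFD arrays. Every propionate array was above every saline array. The difference was 0.46 ± 0.112 (log2, SE), a 1.38-fold ratio with a 95% interval of 0.234 to 0.694 in log2 and a limma adjusted p of 0.236. Rps28, a small protein near the mRNA exit of the 40S subunit (Entrez Gene 54127), was at 11.16, 11.59, 11.53 and 11.19 after propionate and at 10.92, 11.16, 10.88 and 10.67 after saline. The groups met at 11.16, and the difference was 0.46 ± 0.129. Rps29, a zinc-binding 40S protein (Entrez Gene 20090), was at 10.56, 10.83, 10.73 and 10.33 after propionate and at 10.16, 10.39, 10.16 and 9.97 after saline. Propionate HFD 4 lay among the saline arrays, and the difference was 0.45 ± 0.129. Rps12, a 40S protein at the beak of the subunit, was at 10.79, 11.04, 11.22 and 10.62 after propionate and at 10.40, 10.71, 10.44 and 10.25 after saline. The groups overlapped through propionate HFD 4 and saline HFD 2, and the difference was 0.46 ± 0.127. Rpsa, the laminin receptor homologue, differed by 0.27 ± 0.102 and Rps4x by 0.15 ± 0.0638. Rps6, whose protein is the S6 kinase target, differed by 0.06 ± 0.0512, with arrays at 12.53, 12.56, 12.62 and 12.65 after propionate and 12.45, 12.56, 12.56 and 12.56 after saline.

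Among the large subunit genes Rpl24, whose protein sits at the bridge between the subunits (Entrez Gene 68193), was at 9.89, 10.34, 10.43 and 10.10 in the propionate HFD arrays and at 9.40, 10.01, 9.63 and 9.42 in the saline HFD arrays. The lowest propionate array was below the highest saline array. Its difference of 0.58 ± 0.161 was the largest of the members. Rpl13a, known also for its part in the silencing of inflammatory mRNAs (Entrez Gene 22121), was at 11.35, 11.47, 11.48 and 11.22 after propionate and at 11.18, 11.20, 11.09 and 11.09 after saline. The groups did not overlap, and the difference was 0.24 ± 0.0639 (adjusted p = 0.236). Rpl13 differed by 0.35 ± 0.095, Rpl22 by 0.46 ± 0.15 and Rpl7 by 0.16 ± 0.0598. Rpl11 and Rpl5, which join the 5S ribosomal RNA and can bind Mdm2, differed by 0.23 ± 0.0903 and 0.18 ± 0.0774. The lowest adjusted p over the 71 members was 0.236.

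Some members were near 0. Rplp0 was at 12.72, 12.69, 12.71 and 12.69 after propionate and at 12.74, 12.68, 12.68 and 12.71 after saline on HFD, with a 95% interval for the difference of -0.075 to 0.0748. For Rpl3, a core protein near the peptidyl transferase centre, the 95% interval was -0.14 to 0.137. The signs of the differences of both genes turned with small changes in the processing. The other stalk proteins had differences of 0.20 ± 0.0812 for Rplp1 and -0.03 ± 0.0842 for Rplp2. The Rplp2 probe set was dim, with means of 5.28 after propionate and 5.31 after saline, against 12.52 and 12.32 for Rplp1. A flat reading there says little about this gene. Rpl10 and Rpl39 differed by 0.01 ± 0.0447 and 0.02 ± 0.0518. The paralogues were not alike either. Rpl7l1, a nucleolar relative of Rpl7 (Entrez Gene 66229), had the lowest difference of the members, -0.17 ± 0.1, and Rps27l, a p53 target related to Rps27, had -0.07 ± 0.1. Rps4l, annotated in RefSeq as a transcribed pseudogene, had 0.23 ± 0.0925.

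**Figure D2:**
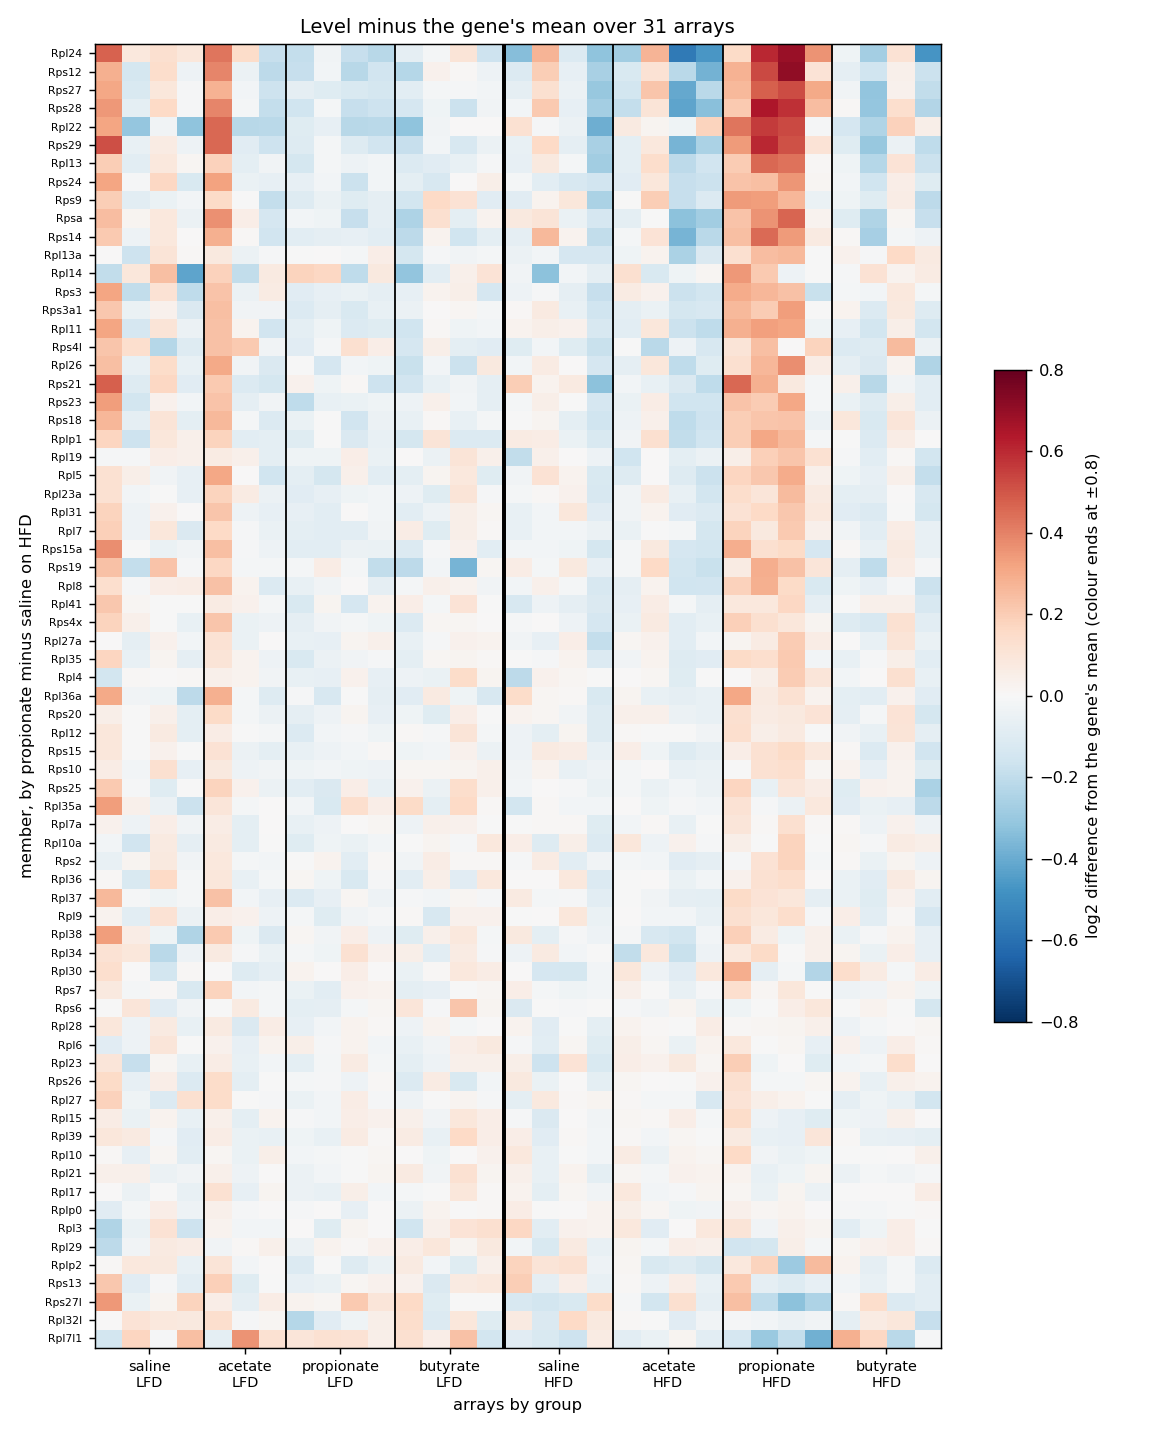
Level of each of the 71 tested members (rows, ordered by the difference of propionate from saline on HFD) in each of the 31 arrays (columns, by group), as the log2 difference from the gene's own mean over all arrays; red is above and blue below the mean, and the colour ends at ±0.8. The upper rows, led by Rpl24, Rps12, Rps27 and Rps28, are red in the propionate HFD arrays and also in saline LFD 1 and acetate LFD 1; rows near Rplp0 and Rpl21 are pale throughout.

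Many members are read by several probe sets, since the genome holds processed copies of most ribosomal protein genes, and signal from a gene and from a near-identical copy cannot be told apart. The 74 members had 385 one-symbol probe sets, from 1 to 41 per gene, of which 382 passed the filter. In a fit with every probe set as its own feature, 340 of the 382 had a difference above 0 after propionate on HFD, with a median of 0.0863 against -0.0162 over all 14592 probe sets. The 7 probe sets of Rps28 ranged from 0.45 to 0.48 and the 12 of Rps12 from 0.43 to 0.54. The 4 of Rps29 ranged from 0.45 to 0.54 and the 3 of Rpl24 from 0.49 to 0.58. Those of Rpl21, 41 in number, ranged from -0.04 to 0.07. Probe sets of a gene share sequence and are not replicates. Over the 71 members the difference had a rank correlation of -0.037 with the number of probe sets, -0.06 with the genomic span of the gene and -0.351 with the mean level. With the SD within groups it was 0.625, so the members with the larger differences were also the more variable ones. With a member's own correlation with the mean level of small nucleolar RNAs, described further on, it was 0.857. These measures come partly from the same arrays as the difference.

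**Figure D3:**
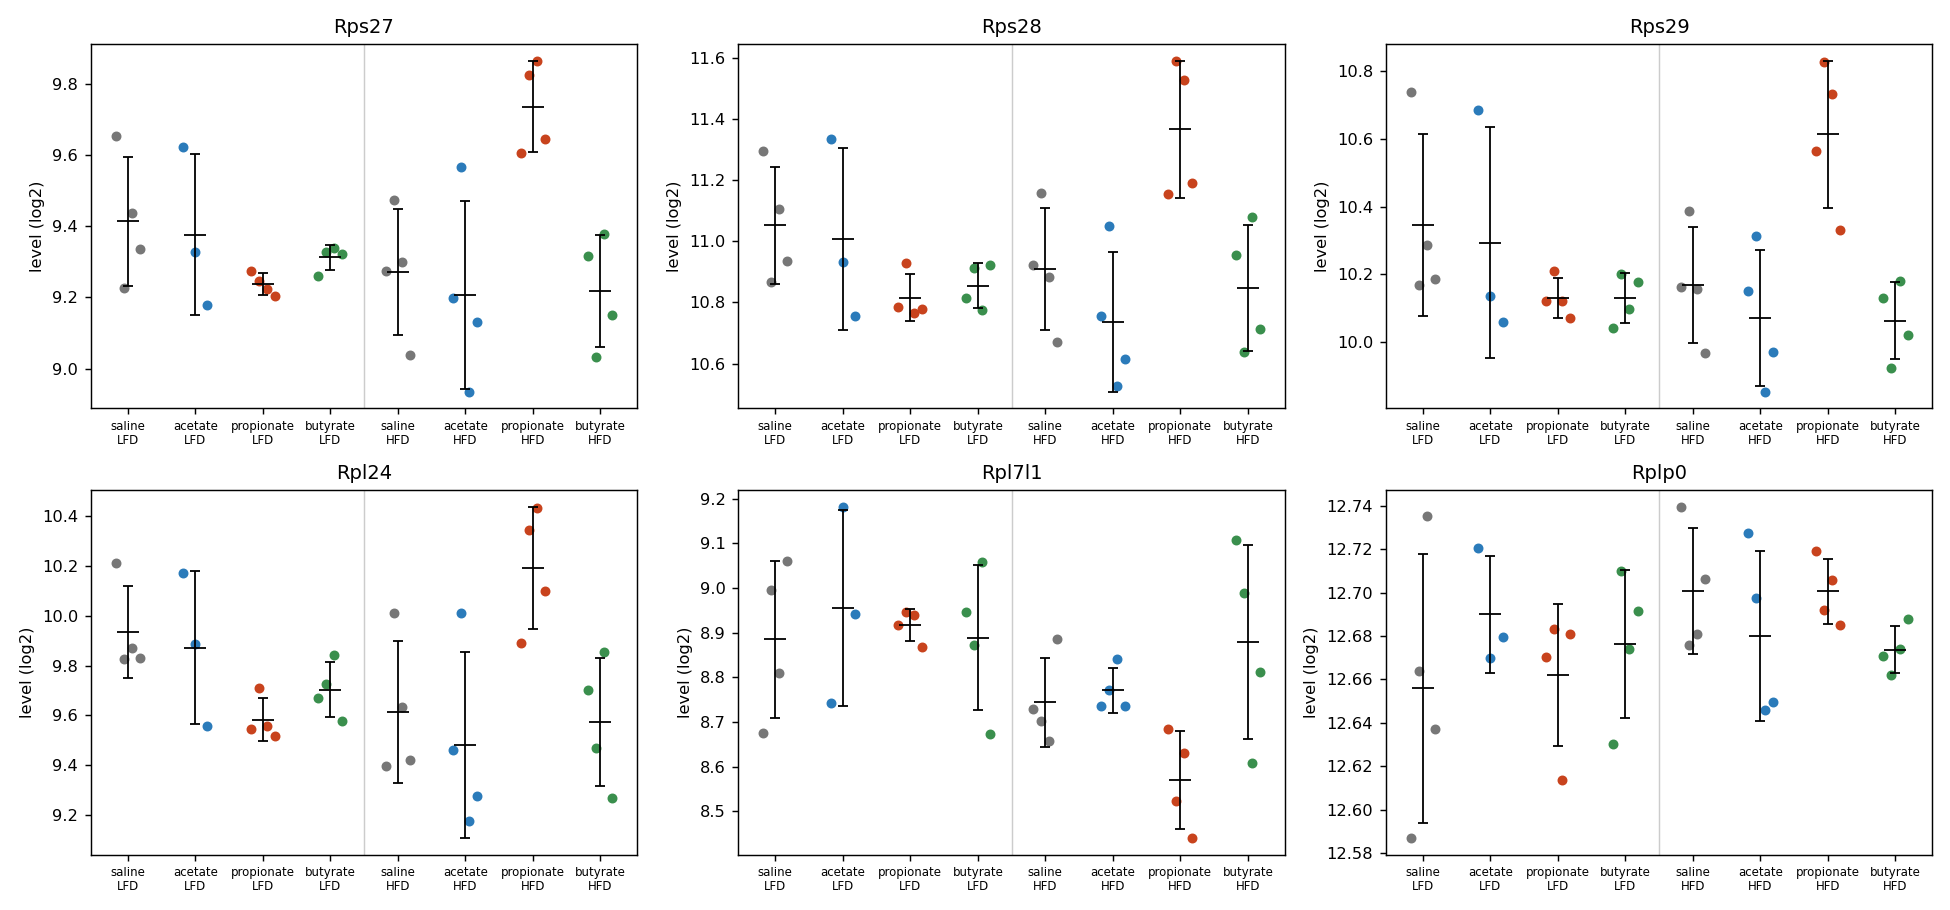
Log2 level per array of Rps27, Rps28, Rps29, Rpl24, Rpl7l1 and Rplp0 by group, with the group mean and SD (n = 4, acetate LFD 3); each panel has its own y axis, which does not start at 0. Rps27 lies at 9.61 to 9.86 in the propionate HFD arrays and at 8.94 to 9.57 in the other HFD arrays, while all values of Rplp0 lie between 12.59 and 12.74.

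On LFD the comparison of propionate with saline went the other way, without passing any test. No member and no gene was called by limma (0%). The median over the members was -0.060, with 57 of 71 below 0, against 0.016 over all genes. At an unadjusted p under 0.05 there was 1 member, against a background of 3.81%. The count was not stable. Without the 4 arrays rich in lipid absorption transcripts, 3 of which are in this comparison, it was 8, of which 6 were lower after propionate and 2 higher, against a background of 7.38% in that setting. It was 6 without saline LFD 2 and 3 without saline LFD 4. It was 2 without each of saline LFD 3, propionate LFD 2, propionate LFD 4, saline HFD 2 and butyrate HFD 4, and 0 without propionate LFD 1 or propionate LFD 3. With only the groups compared it was 4, and with centred arrays it was 3. Of these settings, only the one without the 4 arrays has its background given here. Without saline LFD 1 the members' median was -0.028 in place of -0.060. The 1 member was Rpl24, at 9.55, 9.71, 9.56 and 9.52 after propionate and 10.21, 9.83, 9.87 and 9.83 after saline, with every propionate array lower. Its difference was -0.35 ± 0.161 (adjusted p = 0.972). Rps27 was at 9.27, 9.25, 9.22 and 9.21 after propionate and at 9.65, 9.23, 9.44 and 9.34 after saline. Its groups overlapped, with saline LFD 1 the highest. Rps27, Rps28 and Rps29 had differences of -0.18 ± 0.112, -0.24 ± 0.129 and -0.21 ± 0.129. The next smallest p-values were those of Rpl32l (-0.15 ± 0.0728) and Rpl41 (-0.11 ± 0.0574).

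The difference between the responses on the 2 diets was tested directly. No gene was called (0%), with a smallest adjusted p of 0.154 among the members. The members' median was 0.162 against -0.036 over all genes, with 63 of 71 above 0. At an unadjusted p under 0.05 there were 34 members, all with the larger value on HFD. The background was 12.8% in either direction and 4.24% with the larger value on HFD. Rpl24 led with 0.93 ± 0.228, followed by Rps28 with 0.69 ± 0.183, Rps12 with 0.67 ± 0.18, Rps29 with 0.66 ± 0.182 and Rps27 with 0.64 ± 0.159. Over the 71 members the differences on HFD and on LFD, which share no arrays, ranked in opposite order (rho -0.651). Genes of this set vary together within groups, so the members are not independent points. The LFD side leans on saline LFD 1, without which the members' median differed by -0.02 between propionate and saline. The rank correlation was not taken without that array.

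**Figure D4:**
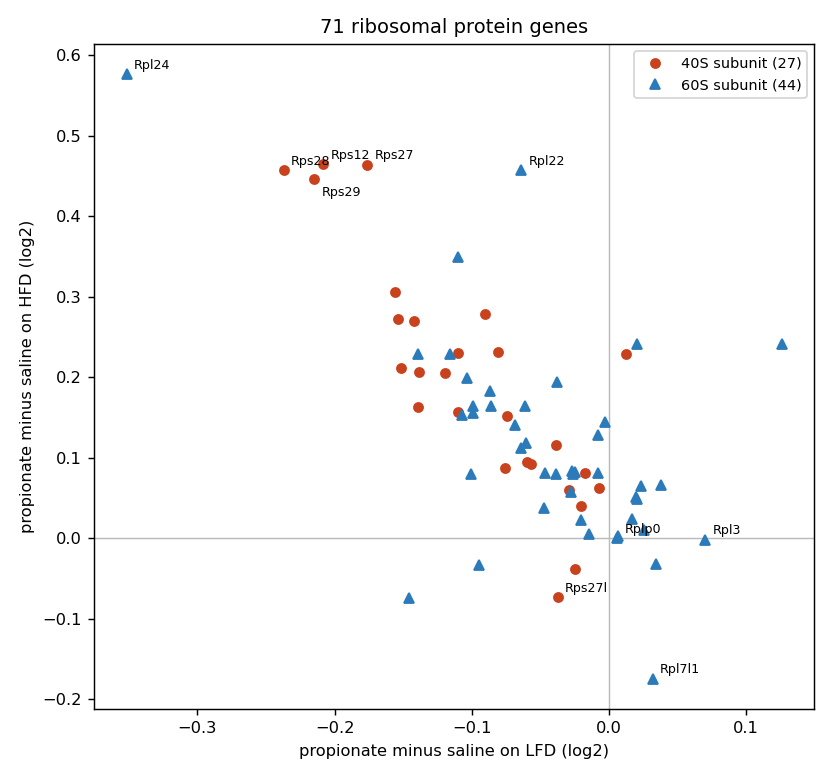
Difference of propionate from saline on HFD (y axis) against that on LFD (x axis), in log2, for the 27 members of the 40S subunit (circles) and the 44 of the 60S subunit (triangles). Rpl24 is at the upper left, with -0.35 on LFD and 0.58 on HFD, and Rpl7l1 at the lower right; 63 of the 71 members lie above 0 on HFD and 57 below 0 on LFD.

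Acetate and butyrate against saline gave few members below the unadjusted threshold. After acetate on LFD limma called none (0%), and 0 members had an unadjusted p under 0.05, against a background of 1.51%. After acetate on HFD it called none (0%). There 1 member was under an unadjusted 0.05 (background 2.51%), Rplp2, whose probe set was dim, with -0.18 ± 0.0842. After butyrate on LFD it called none (0%) and the 1 member was Rps19 (background 2.8%), with -0.21 ± 0.0942. After butyrate on HFD it called none (0%) and the 1 member was Rpl13a (background 4.01%), with 0.15 ± 0.0639. Rpl13a was at 11.26, 11.22, 11.38 and 11.30 there, above every saline HFD array. With the 4 arrays rich in lipid absorption transcripts left out, the count was 2 for acetate on LFD (background 3.15%), 5 for butyrate on LFD (background 6.57%) and 0 for acetate on HFD. With 1 array left out at a time, the 4 counts ranged from 0 to 3, the 3 coming from butyrate on LFD without saline LFD 2 or saline LFD 4. The median half-width of the 95% interval over the members was 0.138 on HFD, so a shift of a single gene under about that size was not resolved. No difference between the responses on HFD and LFD passed in limma, for acetate (0%, with 0 members and 0.844% of genes under an unadjusted 0.05) or for butyrate (0%, with 1 member, Rpl13a at 0.19 ± 0.0904, and 2.27% of genes).

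The 3 acids were compared with each other at their shared dose of 100 mM and shared time, within each diet, in 6 pairs. Propionate against acetate on HFD gave no called member (0 of 71, and 0% of all genes), with the smallest adjusted p at 0.0576 for Rps28 and Rps27. Rps28 was at 10.76, 11.05, 10.53 and 10.61 after acetate, below all 4 propionate arrays, a difference of 0.63 ± 0.129 with a 95% interval of 0.365 to 0.895. Rps27 was at 9.20, 9.57, 8.94 and 9.13 after acetate, also below all 4, a difference of 0.53 ± 0.112. Rpl24 followed with 0.71 ± 0.161 (adjusted p = 0.0759). The members' median was 0.14 against -0.025 over all genes. At an unadjusted p under 0.05 there were 36 members with more after propionate and none with less, against backgrounds of 13.2% in either direction and 4.89% with more. For 16 members all propionate arrays were above all acetate arrays (background 2.15%), and for Rpl7l1 all were below. The count of 0 called members was 14 without propionate HFD 4 and 11 without acetate HFD 2. Those settings called 1.15% and 1.03% of all genes. The count was 7 without saline LFD 1, 6 without acetate LFD 1, 1 without propionate HFD 1, and 2 without each of acetate LFD 3, saline HFD 2 and saline HFD 4. For these last settings the share of all genes called is not given here, so the counts have no background beside them. Arrays outside the pair matter here because all groups share the estimate of the spread.

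Butyrate against propionate on HFD was the one comparison of acids in which limma called any gene of the table, 8 of 12795 (0.0625%), and none of them was a member. The smallest adjusted p of a member was 0.0594, for Rps27. Rps27 was at 9.32, 9.03, 9.38 and 9.15 after butyrate, below all 4 propionate arrays, a difference of -0.52 ± 0.112. Rps29 was at 10.13, 9.92, 10.18 and 10.02 after butyrate, also below all 4, a difference of -0.55 ± 0.129 (adjusted p = 0.0661). Rps28, at 10.95, 10.64, 11.08 and 10.71, differed by -0.52 ± 0.129. The median over the members was -0.124 against 0.039 over all genes. Of the 33 members at an unadjusted p under 0.05, 32 had less after butyrate, against backgrounds of 17.3% in either direction and 4.57% with less. The exception was Rpl7l1, with 0.31 ± 0.1. For 15 members all butyrate arrays were below all propionate arrays (background 2.08%). The count of 0 called members was 10 without propionate HFD 1 (4.57% of all genes called), 7 without propionate HFD 4 (0.516%), and 6 without saline LFD 1 or acetate LFD 1. It was 1 without each of acetate LFD 3, saline HFD 4 and acetate HFD 2. Counts printed without a share of all genes have no background beside them and are not read as particular to the members. These comparisons and the one with saline share the propionate HFD arrays, so they are not independent of each other.

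Butyrate against acetate on HFD gave no call (0%) and 1 member under an unadjusted 0.05 (background 3.64%), Rpl13a with 0.16 ± 0.0639. On LFD limma called no member and no gene for propionate against acetate (0%), butyrate against acetate (0%) and butyrate against propionate (0%). Under an unadjusted 0.05 these gave 0, 0 and 1 members, against backgrounds of 3.7%, 1.4% and 3.62%. Without acetate LFD 3, 8 members were under an unadjusted 0.05 for propionate against acetate on LFD. The background in that setting is not given here, so the 8 are not set against the 3.7% of the full fit. The 1 member for butyrate against propionate was Rps6, with 0.12 ± 0.0512 more after butyrate than after propionate. The lowest p-values for the others were those of Rps3a1 (-0.15 ± 0.0788, propionate against acetate) and Rps4l (-0.20 ± 0.0999, butyrate against acetate).

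Between the diets, averaged over the infusions, the members' median difference was near 0, but the infusions did not go the same way. The mean of the members' median on HFD minus that on LFD was 0.18 after propionate, -0.05 after saline, -0.09 after acetate and -0.03 after butyrate. Over all 4 infusions 345 genes of the table were called between HFD and LFD (2.7%), and none of the 71 members. Under an unadjusted 0.05 there were 3 members, against a background of 21.7%, and 1 without the 2 arrays rich in smooth muscle transcripts or without propionate HFD 3. The members' median was 0.0044 with 40 of 71 above 0, and the median half-width of the 95% interval was 0.0703. The 3 were Rpl7l1 (-0.17 ± 0.0511, adjusted p = 0.06), Rps27l (-0.12 ± 0.051) and Rpl22 (0.16 ± 0.0764). The first pair are paralogues rather than standard subunits. Rpl7l1 lay between 8.67 and 9.06 in the 4 saline LFD arrays and between 8.66 and 8.89 in the 4 saline HFD arrays. Its means over the infusions were 8.91 on LFD and 8.74 on HFD. The lowest value of all was 8.44, in propionate HFD 4, and the ranges of the 2 diets overlapped. The count of 0 called members was 2 without propionate HFD 1. It was 1 without each of saline LFD 1, saline LFD 3, acetate LFD 1, butyrate LFD 4, saline HFD 4, butyrate HFD 1 and butyrate HFD 2. The share of all genes called in these settings is not given here.

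Genes that make, load or control ribosomes were read from lists in the same fit. Between the diets, 2 of 40 ribosome assembly factors fell on HFD, Heatr1, which acts in the processing of the 18S precursor (-0.24 ± 0.0615, adjusted p = 0.0303), and Bop1 of the 60S assembly complex (-0.21 ± 0.0546, adjusted p = 0.0365). The list as a whole had a median of -0.113, with 36 of 40 below 0 and 16 under an unadjusted 0.05. Of all genes tested between the diets, 2.7% were called and 21.7% were under an unadjusted 0.05, in either direction. Against that share, 2 called genes in a list are not read as particular to the list. Of 17 regulators of ribosomal protein mRNA, 2 rose on HFD, Max, the partner of Myc (0.19 ± 0.0493, adjusted p = 0.0391), and Tsc1, an inhibitor of mTORC1 signalling (0.15 ± 0.0422, adjusted p = 0.0468). No gene passed among the 7 elongation factors, the 19 other TOP mRNAs, the 13 genes of RNA polymerase I transcription and the 8 of surveillance through Mdm2 and p53. After propionate on HFD no gene of these 6 lists passed. The medians were 0.0862 over the elongation factors (3 of 7 under an unadjusted 0.05) and 0.104 over the other TOP mRNAs (6 of 19). These lists share 5 genes, Eef1a1, Eef1b2, Eef1d, Eef1g and Eef2, and the TOP list also holds the 40S protein gene Fau and the assembly factor Npm1. The 12 TOP mRNAs found in no other list had a median of 0.112, with 3 under an unadjusted 0.05. The medians were 0.019 over the assembly factors (3 of 40) and -0.0087 over the RNA polymerase I genes (1 of 13), beside the background of 11.7%.

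Other transcripts moved with the members. The 52 small nucleolar RNAs (snoRNAs) read on the array guide the modification of ribosomal RNA and are mostly cut from introns. After propionate on HFD their median difference was 0.545, with 41 of 52 under an unadjusted 0.05 and all 41 above saline, and limma called none. The background was 11.7% of all genes in either direction and 3.81% above saline. For butyrate against propionate on HFD limma called 4 of the 52, all lower after butyrate, against a background of 0.0625% of all genes. The mean snoRNA level per array was 7.67, 7.92, 7.72 and 7.31 in the propionate HFD arrays, and between 6.74 and 7.23 in the saline HFD arrays. It was 7.68 in saline LFD 1 and 7.48 in acetate LFD 1, the LFD arrays with the highest member medians. Over the 31 arrays the snoRNA mean and the members' median correlated with r = 0.831 (rho 0.821, and r = 0.814 without propionate HFD 2 and 3). Within groups, as deviations from the group means, r was 0.705 (rho 0.69), and over the 27 arrays outside the propionate HFD group it was 0.768 (rho 0.744). All points share the normalization of their array.

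With the snoRNA mean as a covariate, a setting added after the data were seen, the members' median after propionate on HFD was 0.0042 in place of 0.119. The members under an unadjusted 0.05 numbered 1 in place of 33. For propionate against acetate on HFD they were 1 in place of 36, for butyrate against propionate 3 in place of 33, and for the difference between diets 0 in place of 34. The share of all genes in this setting is not given here, so these falls are not read as particular to the members. The covariate was itself highest after propionate on HFD, with a group mean of 7.656 against 7.244 or lower in the other groups. A covariate that differs between the groups compared makes their difference less precise for every gene. The shift of the ribosomal protein genes and that of the snoRNAs cannot be told apart in these arrays. The 25 tested members with a snoRNA gene inside their span had a median of 0.0827 and the other 46 a median of 0.152. RNA integrity was above 8.0 in every sample by the labels, and no value per array was available to set beside the members.

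**Figure D5:**
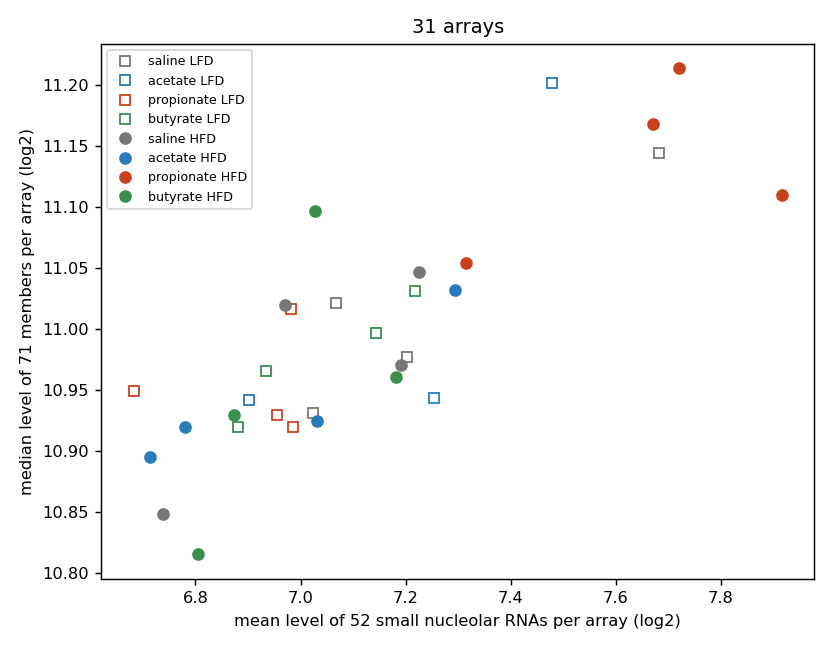
Median log2 level of the 71 members against the mean log2 level of 52 snoRNAs in each of the 31 arrays, coloured by infusion, with filled circles for HFD and open squares for LFD; neither axis starts at 0. Both rise together (r = 0.831), and the propionate HFD arrays, saline LFD 1 and acetate LFD 1 lie at the upper right.

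Cell type markers were set beside the same comparison. After propionate on HFD the smooth muscle markers had a median difference of -0.814, with 8 of 8 below 0 and 7 under an unadjusted 0.05. In that comparison the 2 saline HFD arrays noted above carry the excess, and without them the members' median was 0.144. Markers of proliferating cells had a median of -0.201, with 12 of 13 below 0, and those of small-intestinal lipid absorption -0.276, with 12 of 14 below 0. Colonocyte, goblet cell and crypt stem cell markers had medians of -0.073, 0.022 and 0.027. Their part in the members' differences was not tested beyond the settings named here.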

How the data were processed

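RNA from colonic scrapings was read on single-colour whole-transcript arrays, 1 per sample. The deposited values are log2 levels made by the authors with RMA, per the submitters' processing notes; no source used here gives its version or annotation. Of 35556 probe sets, 21218 carried 1 symbol in the platform annotation, 1881 several and 12457 were not listed. The probe set with the highest mean over the arrays stood for a gene. A gene was tested if at least 3 arrays reached a level of 20 (4.32 in log2). A model with 1 mean per group over all 31 arrays was fitted in limma 3.58.1 (R 4.3.3) with eBayes along an intensity trend, and p-values were Benjamini-Hochberg adjusted over 12795 genes in each of 16 comparisons; a gene was called at an adjusted p under 0.05. On simulated arrays with the same means and spread, the propionate HFD comparison called 69 of 100 genes shifted by 0.5 and 95 of 100 shifted by 1 in log2. It also called 4 genes that were not shifted. The shifted genes were drawn at random from all genes tested, and each gene had independent noise. The members vary together, so these counts do not give the share of shifted members that would be called.

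Named members were a panel of 22 genes listed by function, of which 21 were present, the 3 members with the smallest p where none was called, those with the largest and smallest SD and the lowest correlation with the others, and those below the filter; from other lists, called genes only. The members, the lists and the tests were chosen with earlier results of these data known. Alternatives covered the filter, the probe set rule, array centring, array weights, moderation, the groups in the fit, a replicate block and each array left out; 4 were chosen after seeing the data (every probe set as a feature, the snoRNA mean as a covariate, and leaving out the arrays high in smooth muscle or in lipid absorption transcripts). Promoter windows come from RefSeq. The RMA quantile step gives every array one distribution, so a shift shared by most genes is not visible.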

Additional observations from a re-analysis of the deposited data

Results flagged for a closer look

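The members' median went opposite ways after propionate on the 2 diets. All 4 propionate HFD arrays were above the mean of the saline HFD arrays, by 0.16 on average, and all 4 propionate LFD arrays were below the mean of the saline LFD arrays, by -0.07 on average, a difference of 0.23 in log2. The median over the 40S genes did the same (0.29 on HFD and -0.13 on LFD, a difference of 0.42), and so did the snoRNA mean (0.62 and -0.34, a difference of 0.97). The LFD side of the members' median rests on saline LFD 1: without it the propionate arrays averaged -0.02 from saline, 3 of them below the saline mean and 1 above. Without that array the 40S median was at -0.05 and the snoRNA mean at -0.20, with all 4 propionate arrays below in both. These differences between the diets were not tested as summed values.

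Among 133 groups of 4 arrays examined, 10 held an array far from its 3 fellows; chance marks about 1 group in 20. Rpl11 was at 10.34 in saline HFD 4, against 10.50 to 10.51 in the others, and at 10.44 in propionate HFD 4, against 10.75 to 10.80. Rpl24 was at 10.21 in saline LFD 1, with the others at 9.83 to 9.87. Rps28 was at 10.93 in propionate LFD 2, with the others at 10.76 to 10.79, and Rpl13 at 9.74 in propionate LFD 1, below 9.85 to 9.87. Rpl13a was at 11.08 in butyrate LFD 1, below 11.20 to 11.21. Rps27l was at 10.00 in saline HFD 4, above 9.71 to 9.73, and Rps6 at 12.45 in saline HFD 1, below the other 3 at 12.56. The 60S median was 11.30 in butyrate HFD 3, above 11.16 to 11.17. The snoRNA mean was 6.68 in propionate LFD 4, below 6.96 to 6.99.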

How the results depend on the processing

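The members' medians kept their direction after propionate on HFD under every setting run: 0.0863 to 0.144, except with the snoRNA mean as a covariate, where they were 0.00415 for propionate against saline, -0.00302 for the difference between the diets, -0.000138 against acetate and -0.0059 for butyrate against propionate, with 1, 0, 1 and 3 members under an unadjusted 0.05. The share of all genes with the covariate is not given here, so those counts have no background beside them. The count of called members was 0 in the fit as reported and moved as follows. With array weights it was 11 for propionate against saline, 5 for the difference between diets, 26 for propionate against acetate, 21 for butyrate against propionate and 2 for diet, where 1.66%, 0.789%, 9.39%, 7.32% and 14% of all genes were called. With a mean level of at least 6 it was 1, 2 and 1 for propionate against acetate, butyrate against propionate and diet (0.126%, 0.606% and 5.2% of all genes). With arrays centred on the median it was 1 for butyrate against propionate (0.164%). With every probe set as its own feature it was 10 and 6 for propionate against acetate and butyrate against propionate (26 and 7 of 382 member probe sets, 53 and 34 of all 14592), and without the 2 arrays high in smooth muscle transcripts it was 1 for propionate against acetate (0.125%). With 1 array left out at a time it ranged from 0 to 14 for propionate against acetate, 0 to 10 for butyrate against propionate and 0 to 2 for diet, and the count of 33 under an unadjusted 0.05 after propionate on HFD from 18 to 38. The ranges with 1 array left out have no share of all genes beside them. The cause was not tested.

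Same-numbered arrays of different groups correlated between -0.497 and 0.472 in their deviations (median 0.0402, 42 of 105 pairs above 0.1). Arrays of different number correlated between -0.428 and 0.553 (median -0.0123, 86 of 315 pairs above 0.1). These values do not settle whether the numbers pair arrays, and the fit as reported did not pair them. With the replicate block, limma called 7 members for propionate against acetate on HFD (0.563% of all genes) and 2 for butyrate against propionate (0.5%).

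Differences near 0 turned sign. For Rplp0 after propionate on HFD the value was 0.013 with centring, 0.027 with the mean of its probe sets, 0.0070 without the smooth-muscle-high arrays and -0.0083 to 0.013 with 1 array left out. For Rpl3 it was 0.011, 0.0018 and 0.038 (centring, without those arrays, snoRNA covariate) and -0.042 to 0.041 with 1 array left out. With the covariate Rpl11 was at -0.080, Rpl5 at -0.042, Rplp1 at -0.045 and Rps29 at -0.013. Rps7 after acetate on LFD ranged from -0.0062, without acetate LFD 1, to 0.094. The number of arrays limits the precision.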

Other observations

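Ribosome assembly factors went the opposite way to the ribosomal protein genes in butyrate against propionate on HFD. Of 40 factors 35 were above 0, with a median of 0.151, and 11 were under an unadjusted 0.05, against a background of 17.3% in either direction, while limma called none. Only 4.57% of all genes were under that threshold with less after butyrate, so most of the background was also higher. The median over all genes was above 0 as well. The counts in these lists are therefore not read as particular to them. The 13 genes of RNA polymerase I transcription had a median of 0.104 and 3 under an unadjusted 0.05. Markers of proliferating cells had a median of 0.286, with 11 of 13 above 0 and 4 under an unadjusted 0.05, and limma called none. Over the 31 arrays the mean of the assembly factors and the members' median correlated with r = -0.0785 (rho -0.0956, and r = -0.0138 without the 2 arrays farthest from the middle). The mean of the other TOP mRNAs, 5 of which are also in the elongation factor list, and the members' median correlated with r = 0.587 (rho 0.474, and r = 0.439 without 2 arrays).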
